A study of Homo sapiens with 4 samples.

Results

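The genes described here are 10 kinases, partners and mediators of the DNA damage checkpoint, namely ATM, ATR, ATRIP, CHEK1, CHEK2, WEE1, PKMYT1, TOPBP1, TP53BP1 and MDC1. They were chosen by symbol, through the NCBI Gene identifiers of the count tables, and all 10 were found among the 23459 genes listed. Between 4 h and 8 h of merbarone, MDC1 fell to 0.469 of its 4 h level, CHEK1 to 0.527 and PKMYT1 to 0.590. ATR, CHEK2, TP53BP1 and TOPBP1 fell to between 0.613 and 0.683, and ATM to 0.828. CHEK2 and ATM passed the test with edgeR but not with DESeq2. ATRIP and WEE1 did not pass the test.

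The cells were wild type hTERT RPE-1, a non-cancerous human line from the retinal pigment epithelium that carries the catalytic subunit of telomerase. All were held for 48 h in medium with 0.1% serum and then given merbarone at 200 μM, a drug that inhibits type II topoisomerases without trapping them on cut DNA, for 4 h (2 libraries) or 8 h (2 libraries). Every library thus shares the line, the starvation and the drug, and only the time differs. Untreated cells were not analysed here. No libraries without the drug were at hand for the same hours in low serum. The time of exposure and the time in low serum thus cannot be told apart. The libraries held between 8064450 and 10324697 counted reads. Of the markers of the source tissue, MITF, OTX2, KRT8 and KRT18 were expressed, while RPE65, BEST1, RLBP1 and TYR had between 0 and 7 counts in any library. Markers of immune, endothelial and neural cells summed to at most 1.5 CPM (counts scaled to a common library total). TOP2A, the drug target of dividing cells, had 3486 and 2988 counts at 4 h and 1358 and 1070 at 8 h (log2FC −1.10, edgeR adjusted p = 1.06e-08), and TOP2B had 1238 and 1072 counts against 865 and 688 (log2FC −0.26, edgeR adjusted p = 0.0279, 0.0958 with DESeq2, and 0.316 and 0.056 without replicate 1 at 4 h and replicate 2 at 8 h).

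As background, ATM and ATR are large kinases of the PI3K-like family that stand at the head of the checkpoint. ATM answers double-strand breaks, and ATR, bound to ATRIP, answers single-stranded DNA coated with replication protein A. TOPBP1 switches ATR on, MDC1 and TP53BP1 gather at broken chromatin, and CHEK1 and CHEK2 carry the signal onwards to the CDC25 phosphatases. WEE1 and PKMYT1 place the inhibitory phosphates on CDK1 that CDC25 removes. The transcripts of several of these genes are known to be more abundant in cycling than in resting cells.

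The promoter letters of 4 members that fell, each with marked letters, are shown first. RefSeq windows on GRCh38.p14, another build than the hg19 of the counts, were at hand for 8 of the 10 members, 12 windows in all, with WEE1 and PKMYT1 not among them. Each run below covers 140 bases before the start site and 10 after it, 5′ to 3′ on the strand of the gene. Capitals mark CCAAT or its reverse complement ATTGG, the cell cycle homology letters TTTGAA, and the E2F letters in their reverse complement GCGCGAAA. For CHEK1, which has 3 windows, the one furthest along the gene is shown. The window of ATR, which also fell, held none of the marked letters. The windows of ATRIP, which did not pass the test, held CCAAT or ATTGG. Whether the letters bear on the fall was not tested.
MDC1 (chr6:30717272-30717421, minus strand): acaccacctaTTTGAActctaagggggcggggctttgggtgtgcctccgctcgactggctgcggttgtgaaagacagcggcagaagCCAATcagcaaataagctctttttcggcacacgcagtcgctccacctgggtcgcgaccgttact
CHEK1 (chr11:125626216-125626365, plus strand): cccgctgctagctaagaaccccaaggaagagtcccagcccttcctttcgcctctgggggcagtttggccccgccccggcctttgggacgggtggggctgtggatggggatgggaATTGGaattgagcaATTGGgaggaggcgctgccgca
CHEK2 (chr22:28741811-28741960, minus strand): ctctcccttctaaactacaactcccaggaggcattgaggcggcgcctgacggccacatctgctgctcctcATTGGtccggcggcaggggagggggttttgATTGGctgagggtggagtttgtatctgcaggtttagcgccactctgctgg
TOPBP1 (chr3:133661932-133662081, minus strand): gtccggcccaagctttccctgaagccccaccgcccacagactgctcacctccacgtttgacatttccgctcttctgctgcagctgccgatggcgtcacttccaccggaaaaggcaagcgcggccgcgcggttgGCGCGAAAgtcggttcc

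Both strands of the whole 300-base windows were searched. CCAAT stood in 10 of the 12 windows of members, which belong to 6 genes, and in 34.6% of all 35116 windows. Read on the strand of the gene alone, CCAAT stood in 3 of the 12 windows, or 25%, against 19.6% of all. The short E2F core GGCGC, which also lies inside TTTGGCGC, stood in 10 of the 12 windows and in 48.6% of all. The full E2F letters, TTTGGCGC or TTTCGCGC, were found in TOPBP1 alone, starting 7 bases before the start site, and in 1.15% of all windows. The cell cycle homology letters TTTGAA or TTTAAA were found in 1 window each of MDC1 and ATM, 2 of 12, against 24% of all windows. The decamer of the p53 response element, searched by name, was found in 0 of the 12 windows and in 6.63% of all. The windows of ATM, and those of CHEK1, partly overlap one another, and the set of all windows includes non-coding genes, so these shares describe letters only. MDC1, the member that fell most when all libraries were used, and ATM, which fell by 17.2%, both held CCAAT and TTTGAA.

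For the comparison of 8 h with 4 h, edgeR's quasi-likelihood test was run on the 12559 genes that exceeded 1 CPM in 2 or more libraries. All 10 members passed this filter. A gene is said to rise or fall where the Benjamini-Hochberg adjusted p was below 0.05, and it is called a DEG where the absolute log2 fold change (log2FC, 8 h minus 4 h) was also above 1. Of the members, 8 fell and 0 rose, while 18.8% of all genes tested fell and 19.9% rose. MDC1 was the only DEG among the members with these thresholds. Of all genes tested, 3.88% were DEGs lower at 8 h and 1.45% were DEGs higher at 8 h. In the same 8 members both 8 h libraries lay below both 4 h libraries, which held for 34.9% of all genes tested, and 0 members lay above, against 34.8%. The median log2FC was −0.66 over the members and −0.0024 over all genes. Together the members held 442.0 and 428.3 CPM, on TMM effective library sizes, in the 4 h libraries and 289.1 and 286.4 CPM in the 8 h libraries. In RNA from a whole culture, fewer cells that express a gene and less RNA per cell cannot be told apart.

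**Figure D1:**
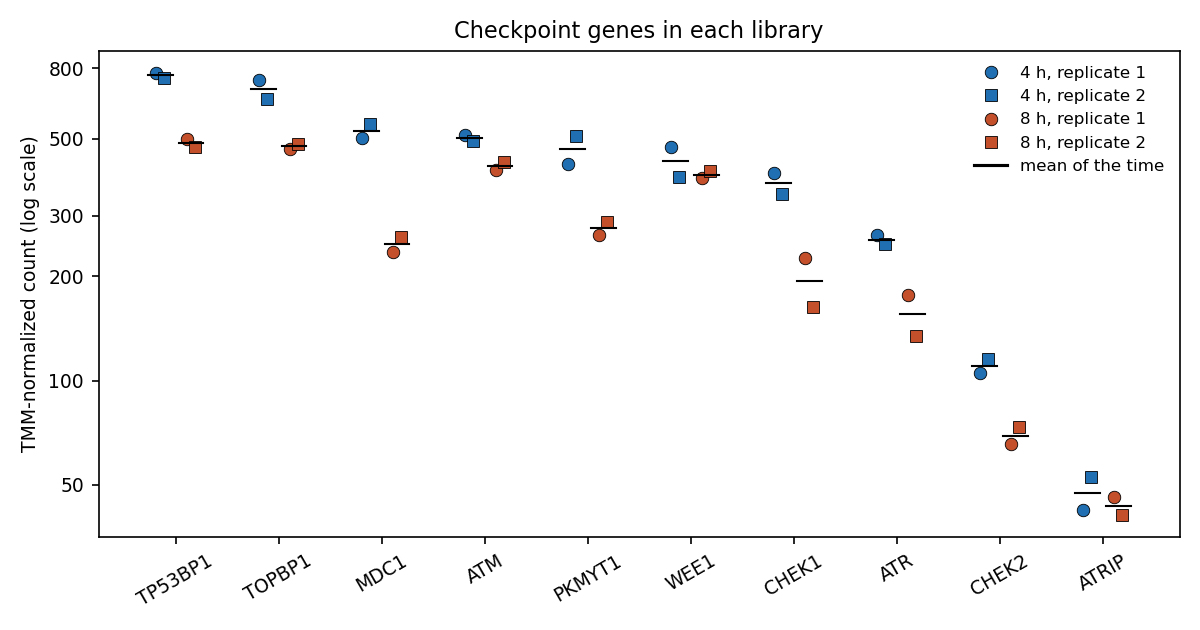
TMM-normalized counts (log axis) of the 10 genes in each library, with 4 h in blue, 8 h in red, replicate 1 as circles, replicate 2 as squares and the mean of each time as a black line. The 8 h points lie below the 4 h points for every gene except WEE1 and ATRIP, whose times overlap.

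Among the kinases that sense damage, both ATR and ATM fell. ATR (chromosome 3, 142167849 to 142297575, minus strand, hg19) had TMM-normalized counts of 263.8 and 247.5 at 4 h and 176.9 and 134.2 at 8 h. Times did not overlap, and the 8 h replicates lay further apart than the 4 h replicates. Its log2FC was −0.71 (standard error 0.15, edgeR adjusted p = 0.0011). ATM (chromosome 11, 108093771 to 108239829, plus strand) had 513.3 and 493.2 normalized counts at 4 h and 407.0 and 427.4 at 8 h. Both 8 h values were lower. The log2FC of ATM was −0.27 (edgeR adjusted p = 0.0427, standard error 0.10), the smallest among the 8 members that fell. The fall of ATM is close to the threshold. Its adjusted p was 0.162 with DESeq2 and 0.056 without the CPM filter, from 0.00628 to 0.162 over 8 alternatives, and 0.198, 0.122 and 0.134 without replicate 1 at 4 h, replicate 2 at 4 h and replicate 1 at 8 h.

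ATRIP and TOPBP1 work with ATR, the first as its obligate partner and the second as its activator. ATRIP (chromosome 3, 48488114 to 48509044, plus strand) was the member with the fewest reads, at 42.2 and 52.6 normalized counts at 4 h and 46.0 and 41.0 at 8 h. There was overlap between the times. Its log2FC of −0.12 had a 95% interval of −0.66 to 0.43 (edgeR adjusted p = 0.752), and this interval holds 0 as well as the log2FC of ATM, TOPBP1 and TP53BP1. In the annotation 31.6% of the exonic bases of ATRIP are shared with TREX1 on the same strand, and TREX1 was given 0 or 1 count in each library. TOPBP1 (chromosome 3, 133317019 to 133381224, minus strand) had 739.5 and 650.9 normalized counts at 4 h and 468.4 and 482.1 at 8 h. Its 8 h replicates were close together and far below both 4 h replicates (log2FC −0.55, standard error 0.10, edgeR adjusted p = 0.000258).

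The effector kinases CHEK1 and CHEK2 both fell. CHEK1 (chromosome 11, 125495058 to 125546150, plus strand), the main target of ATR, had 397.5 and 346.3 normalized counts at 4 h and 226.0 and 162.8 at 8 h. Every 8 h value lay below every 4 h value, but the replicates of each time also differed. Its log2FC was −0.92 (standard error 0.15, edgeR adjusted p = 5.78e-05), just short of the DEG threshold. CHEK1 passed that threshold with scaling by library size alone (−1.03), without replicate 2 at 4 h (−1.02) and without replicate 1 at 8 h (−1.19). It was further from the threshold without replicate 2 at 8 h (−0.72), without replicate 1 at 4 h (−0.83) and with a correction for the dependence of log2FC on mean level (−0.88). In the annotation CHEK1 shares 18.2% of its exonic bases with other genes. These are STT3A on the same strand (1.28%) and an unnamed gene on the opposite strand. STT3A had a log2FC of −0.031 (edgeR adjusted p = 0.793). The part of shared reads in the fall of CHEK1 was not tested. CHEK2 (chromosome 22, 29083731 to 29138410, minus strand), the main target of ATM, had 105.0 and 115.1 normalized counts at 4 h and 65.5 and 73.3 at 8 h. No 8 h library reached a 4 h library, and the log2FC was −0.67 (standard error 0.20, edgeR adjusted p = 0.0117). CHEK2 rests on few reads, between 59 and 127 per library, and its adjusted p was 0.0776 with DESeq2, from 0.00393 to 0.0776 over 8 alternatives, 0.103 without replicate 2 at 4 h and 0.0522 without replicate 1 at 8 h.

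Of the kinases that hold CDK1 inactive, PKMYT1 fell and WEE1 did not pass the test. PKMYT1 (chromosome 16, 3018025 to 3030480, minus strand), which is anchored to inner membranes of the cell, had 423.6 and 508.6 normalized counts at 4 h and 263.9 and 287.0 at 8 h. Both 8 h values were well below the lower 4 h value (log2FC −0.76, standard error 0.12, edgeR adjusted p = 6.57e-05). PKMYT1 shares 16.2% of its exonic bases with PAQR4 on the opposite strand, and PAQR4 fell as well (log2FC −1.30, edgeR adjusted p = 7.17e-08). The part of shared reads in the fall of PKMYT1 was not tested. WEE1 (chromosome 11, 9595217 to 9615004, plus strand), the nuclear kinase of this pair, had 474.7 and 388.9 normalized counts at 4 h and 384.5 and 403.8 at 8 h. These ranges overlapped, as replicate 2 at 4 h lay between the 8 h libraries. Its log2FC of −0.13 had a 95% interval of −0.38 to 0.11 (edgeR adjusted p = 0.384), so the lower bound of WEE1 lay above the upper bound of PKMYT1, which was −0.51.

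The mediators TP53BP1 and MDC1 both fell. MDC1 (chromosome 6, 30667584 to 30685224, minus strand), which binds phosphorylated histone H2AX next to a break, had 502.5 and 551.2 normalized counts at 4 h and 235.2 and 259.7 at 8 h. Replicates were close and the times far apart. Its log2FC was −1.09 (standard error 0.11, 95% interval −1.33 to −0.85, edgeR adjusted p = 5.06e-07), and 3.30% of all genes tested had a lower log2FC. With each library left out the log2FC of MDC1 ran from −1.17 to −1.02. Without replicate 1 at 8 h CHEK1 was lower than MDC1, at −1.19 against −1.02. TP53BP1 (chromosome 15, 43695259 to 43802926, minus strand), which reads histone ubiquitin beside a break and favours end joining, had 775.4 and 751.5 normalized counts at 4 h and 498.1 and 474.6 at 8 h. Replicates of each time were close, and the log2FC was −0.65 (standard error 0.09, edgeR adjusted p = 2.57e-05). In the annotation 36.0% of the exonic bases of TP53BP1 are shared with TUBGCP4 on the opposite strand, which had a log2FC of −0.043 (edgeR adjusted p = 0.864). For MDC1 this share was 10.1%, all of it with MDC1-AS1.

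**Figure D2:**
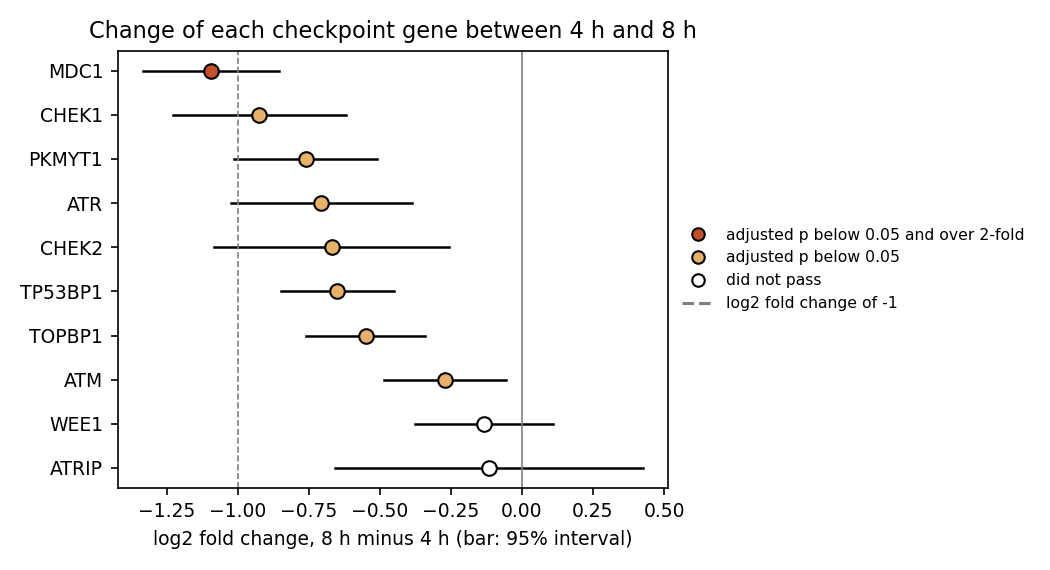
Log2FC of each gene between 4 h and 8 h with its 95% interval, coloured by whether it passed the adjusted p and the 2-fold threshold (dashed line). MDC1 at −1.09 passed both, 7 genes passed the adjusted p alone, and the intervals of WEE1 and ATRIP cross 0.

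Ratios of 2 genes within a library need no scaling between libraries. They were taken for 7 pairs of members that work together, and the times did not overlap in 6 pairs. Of single genes, 34.9% lay lower and 34.8% higher at 8 h without overlap, the share over other pairs of genes was not computed, and ATM, ATR, CHEK1 and CHEK2 each enter more than 1 pair. WEE1 had 1.12 and 0.765 reads for each read of PKMYT1 at 4 h, and 1.46 and 1.41 at 8 h, so that WEE1 had more reads than PKMYT1 in both 8 h libraries and in 1 of the 4 h libraries. ATR had 6.26 and 4.71 reads for each read of ATRIP at 4 h and 3.84 and 3.27 at 8 h. ATM had 1.95 and 1.99 reads for each read of ATR at 4 h and 2.30 and 3.19 at 8 h.

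TP53BP1 had 1.54 and 1.36 reads for each read of MDC1 at 4 h, and 2.12 and 1.83 at 8 h. The mean log2 ratio of this pair was 0.44 higher at 8 h. For CHEK1 against ATR the mean log2 ratio was 0.54 ± 0.08 at 4 h and 0.32 ± 0.05 at 8 h (SD, n = 2 each), the lower at 8 h. That of CHEK2 against ATM was also lower at 8 h, at −2.59 ± 0.07 against −2.19 ± 0.13 (SD, n = 2 each). For these 6 pairs the two-sided exact permutation test over libraries gave p = 0.33, the smallest that 2 libraries against 2 allow, and 0.389 after Benjamini-Hochberg adjustment over the 7 pairs.

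CHEK1 against CHEK2 was the pair that overlapped, at 3.79 and 3.01 reads of CHEK1 per read of CHEK2 at 4 h and 3.45 and 2.22 at 8 h (exact permutation test, p = 0.667, adjusted 0.667). The log2 difference of this pair was −0.29, and without replicate 2 at 8 h it was 0.033, without replicate 1 at 8 h −0.60, without replicate 1 at 4 h −0.12 and without replicate 2 at 4 h −0.45. In other pairs a single library moved the difference by more than 1.5 times. That of ATM and ATR, 0.46, was 0.22 without replicate 2 at 8 h and 0.69 without replicate 1 at 8 h, that of WEE1 and PKMYT1, 0.63, was 0.35 without replicate 2 at 4 h, and that of ATR and ATRIP, −0.61, was −0.41 without replicate 1 at 4 h.

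**Figure D3:**
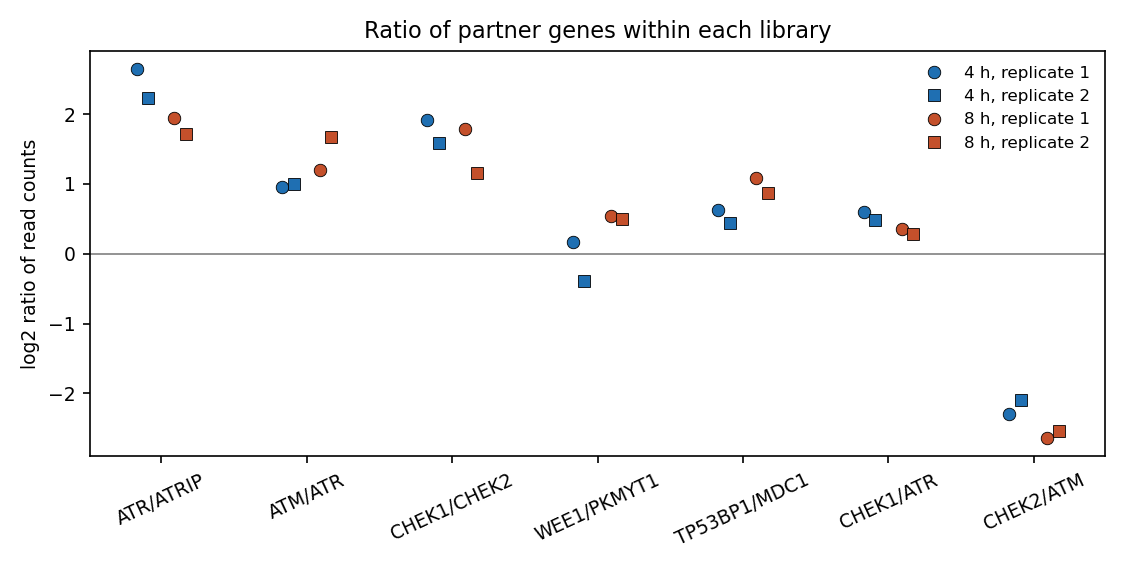
Log2 ratio of the raw read counts of 2 genes within each library, for 7 pairs, with 4 h in blue, 8 h in red, replicate 1 as circles and replicate 2 as squares. The times separate in 6 pairs and overlap for CHEK1/CHEK2.

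Levels were compared between genes as CPM, on TMM effective library sizes, per kilobase of the GENCODE canonical transcript. At 4 h PKMYT1 was the highest member, at 23.6 ± 3.04 (SD, n = 2). TOPBP1 (12.6 ± 1.13) and WEE1 (12.6 ± 1.76) followed, and their libraries overlapped. CHEK1 came next at 9.40 ± 0.92, then MDC1 at 7.89 ± 0.52 and TP53BP1 at 7.68 ± 0.17, which overlapped each other. CHEK2 (6.23 ± 0.41), ATM (4.06 ± 0.12), ATR (3.27 ± 0.15) and ATRIP (1.08 ± 0.17) were the lowest, each separate from its neighbours. ATM and ATR, at the head of the pathway, thus had lower RNA levels per kilobase at 4 h than every other member but ATRIP.

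At 8 h PKMYT1 remained first at 13.9 ± 0.83 CPM per kilobase and WEE1 was second at 11.5 ± 0.40, now separate from TOPBP1 at 8.61 ± 0.18. MDC1 moved from place 5 to place 7, at 3.70 ± 0.26. Its libraries overlapped those of CHEK2 (3.92 ± 0.31), while those of CHEK1 (4.91 ± 1.13) overlapped those of TP53BP1 (4.89 ± 0.17) and CHEK2. ATR at 1.99 ± 0.39 and ATRIP at 0.99 ± 0.08 stayed at the bottom.

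Length is not the whole of what decides how many reads these tables can hold, since the reads of 75 bases were aligned without gaps and kept only where they had a single place in the genome. Every start position of a 75-base read on the canonical transcript was therefore checked for lying inside 1 exon and for having 1 place in GRCh37 at up to 2 mismatches. Such positions are called countable here. Overlap with other genes was not taken into account, and how the counting treated shared bases is not known. MDC1 had the largest countable share, at 83.7% of its positions, followed by ATRIP at 80.3%, TP53BP1 at 79.9% and WEE1 at 79.2%. ATR had 57.9%, as its 47 exons leave many positions across junctions, and ATM had 61.8%.

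CHEK2 stood apart, with 30.4% of its positions countable. Only 44.5% of its positions lie inside 1 of its 15 exons, and of those 68.3% have a single place in the genome, against 96.0% to 100% in the other members. CHEK2 is known for partial copies elsewhere in the genome. Per 1000 countable positions, CHEK2 had a level of 21.3 ± 1.39 CPM (SD, n = 2) at 4 h. This put CHEK2 at place 2 among the members, against place 7 per kilobase. Its libraries overlapped those of TOPBP1 (20.4 ± 1.84), at place 3. At 8 h CHEK2 was at place 4 per 1000 countable positions (13.5 ± 1.08) and at place 6 per kilobase. CHEK2 at 4 h lay above CHEK1, at 12.2 ± 1.19 per 1000 countable positions, while per kilobase CHEK1 was above CHEK2. The order of CHEK1 and CHEK2 thus depends on how length is counted. PKMYT1 was first (34.9 ± 4.49 at 4 h) and ATRIP last (1.37 ± 0.21 at 4 h) on both scales. At 8 h ATM (5.49 ± 0.19) lay above MDC1 (4.47 ± 0.31) per 1000 countable positions, while per kilobase MDC1 was above ATM. The fold changes between times are not touched by this choice, as each gene has the same positions in every library.

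**Figure D4:**
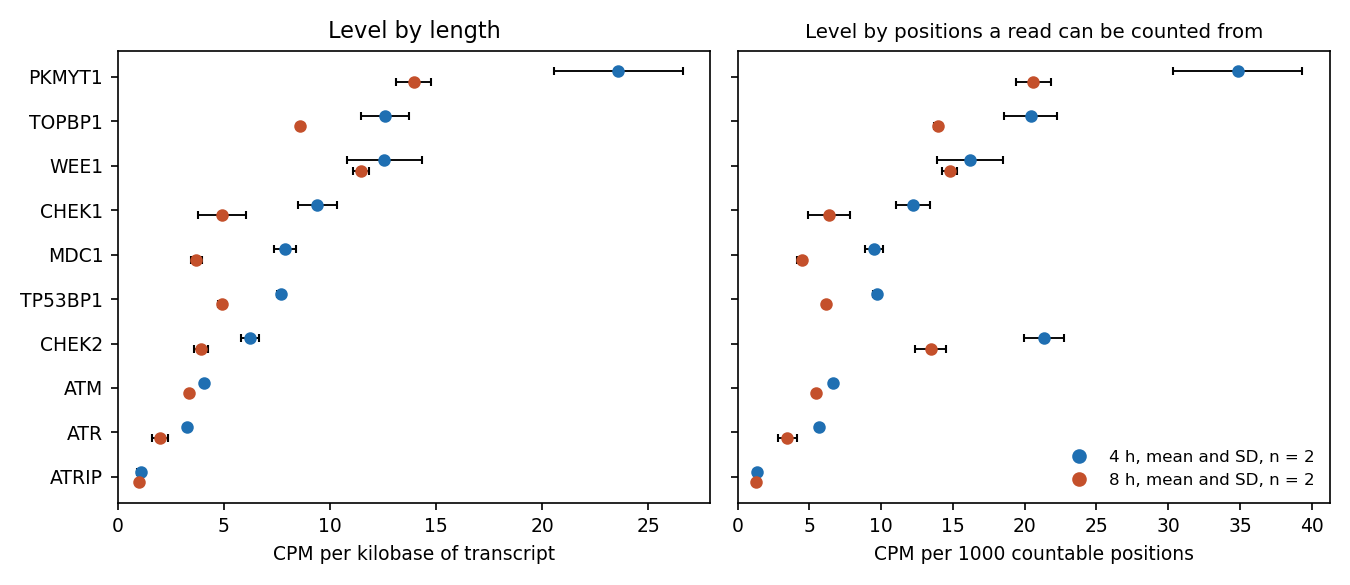
Level of each gene at 4 h (blue) and 8 h (red) as mean and SD of 2 libraries, in CPM per kilobase of transcript (left) and in CPM per 1000 positions from which a 75-base read can be counted (right). CHEK2 goes from place 7 to place 2 at 4 h, 6.23 on the left against 21.3 on the right. On the right its 4 h libraries overlap those of TOPBP1. At 8 h CHEK2 goes from place 6 to place 4.

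Other genes of the pathway were described by lists, beside all genes tested, of which 18.8% fell and 19.9% rose. Of all genes tested, 3.88% were DEGs lower at 8 h and 1.45% DEGs higher at 8 h. Among genes that act with ATR, 5 of the 6 fork mediators and subunits of replication protein A fell and 0 rose, with a median log2FC of −0.83. CLSPN, the adaptor through which ATR reaches CHEK1, fell from 558 and 480 counts to 141 and 113 (log2FC −1.72, standard error 0.13, edgeR adjusted p = 1.01e-08). TIPIN, part of the fork protection complex, fell from 87 and 97 counts to 46 and 25 (log2FC −1.06, edgeR adjusted p = 0.00192). TIPIN was short of the DEG threshold with a correction for the dependence of log2FC on mean level (−0.90), without replicate 2 at 4 h (−0.98) and without replicate 2 at 8 h (−0.82). The member of this list that did not pass was RPA3, at −0.14. Of the 7 genes of the RAD9-RAD1-HUS1 clamp, its loader and ETAA1, 3 fell and 0 rose, with a median of −0.34. RAD9B was a DEG at −1.21 (edgeR adjusted p = 0.00966), on counts of 38 and 37 at 4 h against 14 and 12 at 8 h. Its adjusted p was 0.0958 with DESeq2, from 0.00508 to 0.0958 over 8 alternatives, and 0.0585 and 0.0544 without replicate 1 and replicate 2 at 4 h, and with that correction its log2FC was −0.99. The other genes that fell, named after their values were seen, were RAD17 (−0.81), the clamp loader subunit, and RAD9A (−0.69).

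On the side of ATM were 8 genes of the MRN complex, the ATM cofactors and the chaperones of PI3K-like kinases. Of these 5 fell and 1 rose, against 18.8% and 19.9% of all genes, with a median log2FC of −0.38. MRE11, the nuclease of the MRN complex, fell from 231 and 171 counts to 112 and 92 (log2FC −0.66, edgeR adjusted p = 0.00579, and 0.156 without replicate 1 at 4 h). ATMIN, an ATM cofactor, was the gene that rose (log2FC 0.24, edgeR adjusted p = 0.0305). ATMIN is close to the threshold, with an adjusted p from 0.0128 to 0.224 over 8 alternatives and of 0.239, 0.0883 and 0.103 without replicate 1 at 4 h, replicate 2 at 4 h and replicate 1 at 8 h. Among the other PI3K-like kinases, PRKDC, the catalytic subunit of DNA-PK, fell slightly (log2FC −0.30, edgeR adjusted p = 0.00585, and 0.0657 without replicate 1 at 4 h). The other 3 did not pass, and the median of the 4 was −0.061.

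Of 18 genes of the chromatin pathway around MDC1 and TP53BP1, 17 were tested. Of these 4 fell, where 18.8% of all genes fell, 1 rose and 12 did not pass, with a median log2FC of −0.10. H2AX, whose phosphorylated form MDC1 binds, fell from 1253 and 1297 counts to 405 and 489 (log2FC −1.18, standard error 0.12, edgeR adjusted p = 4.26e-07). Without replicate 1 at 8 h the log2FC of H2AX was −0.92, short of the DEG threshold. BRCA1 and its partner BARD1 were DEGs too, at −1.60 and −1.29. RNF169, which competes with TP53BP1 for ubiquitylated histones, was the only DEG that rose on any of these lists, from 714 and 673 counts to 1289 and 1111 (log2FC 1.11, standard error 0.09, edgeR adjusted p = 1.14e-08). The ligases between MDC1 and TP53BP1 did not pass, with RNF8 at 0.14 and RNF168 at −0.029, named after their values were seen. BRCC3 was the remaining gene that fell, at −0.85.

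Most cell cycle genes that the checkpoint restrains fell. While 18.8% of all genes fell and 3.88% were DEGs lower at 8 h, 9 of 10 CDC25 phosphatases, CDKs and cyclins fell. Of these 6 were DEGs, and the median log2FC of the 10 was −1.12. The largest falls were those of CCNE2 (−2.67, on 77 and 75 counts against 8 and 11), CCNB1 (−1.64), CCNA2 (−1.35) and CDK1 (−1.22), the kinase that WEE1 and PKMYT1 inhibit. CCNE1 did not pass, at 0.29. Among genes that end the checkpoint, PLK1, the kinase that marks WEE1 for destruction, and AURKA, which activates PLK1, were DEGs at −1.63 and −1.60. On that list 3 of 10 fell and 2 rose, where 18.8% of all genes fell and 19.9% rose, with a median of −0.0086. The third that fell was BORA (−0.86), a cofactor of AURKA. The genes that rose, like BORA named after their values were seen, were FBXW11 (0.47), a ubiquitin ligase adaptor, and PPM1D (0.41), a phosphatase that acts on ATM targets.

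On the arm from ATM to p53, 5 of 6 genes rose and 1 fell, with a median log2FC of 0.35. Of all genes tested, 19.9% rose and 18.8% fell. CDKN1A, which encodes the CDK inhibitor p21, had 41041 and 37524 counts at 4 h and 59947 and 51161 at 8 h (log2FC 0.82, standard error 0.06, edgeR adjusted p = 1.21e-08). GADD45A fell by 0.21 on the log2 scale (edgeR adjusted p = 0.026, from 0.0004 to 0.0544 over 8 alternatives, and 0.269 and 0.0591 without replicate 1 and replicate 2 at 4 h). None of the 6 was a DEG.

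Proliferation markers were also lower at 8 h than at 4 h. All 10 fell, 7 of them as DEGs, against 18.8% and 3.88% of all genes, with a median log2FC of −1.11. Their summed level was 1700.2 and 1657.1 CPM in the 4 h libraries and 971.3 and 876.8 CPM in the 8 h libraries. TOP2A is 1 of them. The largest falls among them were those of CDC20 (−1.30), RRM2 (−1.17), MKI67 (−1.15) and MCM6 (−1.15). None of the markers was at 0 in any library, and the lowest count was 149. The part of the share of cycling cells in the fall of the checkpoint genes was not tested. All of these lists, like the members, were compiled with earlier results of these data known, and no test of a list against other genes was made.

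**Figure D5:**
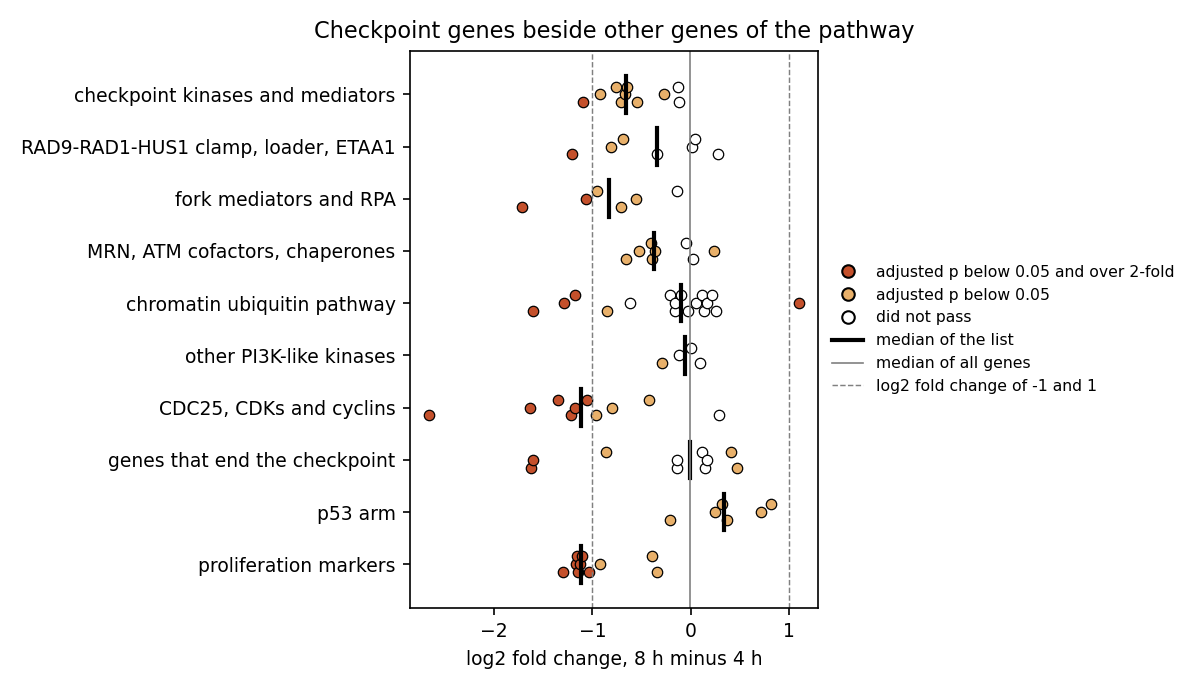
Log2FC between 4 h and 8 h of each gene tested (points, coloured by the thresholds passed) in the list of checkpoint kinases and mediators and in 9 related lists, with the median of each list as a black bar and the median of all genes as a grey line. The checkpoint list has its median at −0.66, between the cell cycle genes and proliferation markers at −1.12 and −1.11 and the p53 arm at 0.35.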

How the data were processed

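The submitters sequenced polyadenylated RNA as single reads of 75 bases from a stranded kit. Alignment by the authors was to hg19, with Bowtie (version 1.2.0 per the labels). They kept reads with a single position and deposited raw counts per gene and library, without normalization. The counting tool, gene annotation and strand setting are not given in the sources used here. Symbols came from the RefSeq table of GRCh38.p14, and positions and exons from GENCODE on GRCh37, the assembly behind hg19.

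Genes exceeding 1 CPM in 2 or more libraries were retained, TMM factors were calculated, and 8 h was compared with 4 h in all 4 libraries by edgeR 4.0.16 in R 4.3.3, with time as the only term and adjustment over all 12559 genes. Normalized counts are counts divided by the effective library size and multiplied by the mean of these sizes. The standard error of a log2FC is its size over the square root of F, and intervals use the t distribution. Limma-Voom (limma 3.58.1), DESeq2 1.42.0, other scalings, filters and thresholds, a replicate block and each library left out were alternatives, and the tests were tried on simulated counts. The members, lists and alternatives were chosen with earlier results of these data known. The named genes were the members, TOP2A, TOP2B and, per list, up to 4 DEGs with the largest log2FC or else the largest rise and fall. Other genes named, such as RPA3, BRCC3, CCNE1 and those that share exons with members, were chosen after their values were seen. The tests weigh the change between times against the spread between biological replicates, as the study calls them. In edgeR the spread of each gene is moderated towards that of all genes. The p-value of a gene thus rests in part on the spread of other genes. Replicates were not copies, with a chi-square per degree of freedom of 2.67 at 4 h and 3.84 at 8 h. Protein sequence features were planned and were not computed. The depth of 8064450 to 10324697 counts makes a CPM of 1 about 10 counts or fewer.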

Additional observations from a re-analysis of the deposited data

How the results depend on the processing

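All 8 members that fell had a negative log2FC under each of the 8 other tests, scalings, filters and blocks and with each library left out. Under those 8 alternatives, the number with an adjusted p below 0.05 was between 6 (DESeq2) and 8. Whether ATM and CHEK2 passed also depended on single libraries, as given above. The number of DEGs among the members, 1 as reported, was 2 with library size alone, which shifted the median over all genes from −0.0024 to −0.11, and 0 with glmTreat, which asks whether a change exceeds 2-fold and calls 84 of all genes in place of 669. With each library left out it ran from 1 to 2. Lower genes were 72.8% of all DEGs, 83.7% with library size alone and 56.5% when the dependence of log2FC on mean level was corrected (trend correction). The median log2FC of the members was −0.77 with library size alone and −0.62 with that correction. The 2 members that did not pass had no stable direction. ATRIP was at 0.059 with the trend correction and ran from −0.28 to 0.051 with each library left out, and WEE1 ran from −0.27 to 0.010. The log2 difference of CHEK1/CHEK2 ran from −0.60 to 0.033. The cause was not tested. Where 1 library is left out, the lone library of its time is assumed to vary like the other time. Of the promoter windows of members, 0% held the full E2F letters and 25% held CCAAT when 1 strand was read, against 0.638% and 19.6% of all windows.

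With the replicate number as a block, 8 members fell and 1 was a DEG, with a median log2FC of −0.66 over the members, and all genes gave 691 DEGs. Deviations of same-numbered libraries had a correlation of 0.04 over 12559 genes and of 0.11 over 9396 well-counted ones (mean count 100 or more), and the labels give the libraries a shared number without saying what it marks. ATRIP had 33 to 58 counts per library, the fewest among the members.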
